A study of Homo sapiens with 13 samples.

Results

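The 10 genes described here set how much glucose carbon enters glycolysis, whether pyruvate goes on into the mitochondrion, and how lactate leaves the cell. They were chosen by name from the 20033 protein-coding genes of GENCODE v44, and every PTBP1 or RUNX1 peak inside each gene or within 10 kb of either end was taken. The choice was made with earlier results of these data known, so values set beside all coding genes only describe the members. PFKFB2, PFKFB3, PFKFB4 and TIGAR set the level of fructose 2,6-bisphosphate. PDK1, PDK2 and PDK3 restrain pyruvate dehydrogenase. SLC16A1 and SLC16A3 export lactate, and TXNIP limits glucose uptake.

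The study mapped PTBP1, a splicing factor that binds pyrimidine-rich RNA, and RUNX1, a haematopoietic transcription factor, on the chromatin of MOLM-13, a human acute myeloid leukemia cell line, and asked where they lie together. Its 13 libraries were all from this single line, with no treatment or genetic change given in the labels. PTBP1 and RUNX1 each had 2 biological replicates by CUT&Tag and 2 by CUT&RUN, IgG had 1 CUT&Tag and 2 CUT&RUN libraries, and H3K27me3 had 2 CUT&RUN libraries. CUT&Tag and CUT&RUN direct an enzyme to an antibody on chromatin, so that DNA near the target is tagged or cut out and sequenced. The data described here were 1 deposited peak list for PTBP1 and 1 for RUNX1, so there is no spread between replicates beside any value and no difference between conditions to test.

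As background, fructose 2,6-bisphosphate is the strongest known activator of phosphofructokinase, the committed step of glycolysis. PFKFB enzymes make and degrade it, with the balance differing between isoforms, and TIGAR degrades it. PDK kinases phosphorylate and switch off pyruvate dehydrogenase, which leaves pyruvate to be reduced to lactate and carried out of the cell by the monocarboxylate transporters MCT1 (SLC16A1) and MCT4 (SLC16A3). TXNIP binds glucose transporters and removes them from the cell surface, and its gene is itself switched on by glucose through a carbohydrate response element, which is read by MLX together with MondoA (MLXIP) or ChREBP (MLXIPL).

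The sequences under the summits that the results turn on are given first, each 101 bases long, from hg38 and on the strand of the gene. Capitals mark a carbohydrate response element or the RUNX motif where the window held one. TXNIP RUNX1 peak 1, chr1:145996622-145996722, minus strand, is shown because it held a match to the carbohydrate response element. SLC16A3 RUNX1 peak 2, chr17:82217534-82217634, plus strand, was the only one of the members' RUNX1 summits with the RUNX motif. PFKFB4 PTBP1 peak 2, chr3:48557044-48557144, minus strand, and PDK2 PTBP1 peak 1, chr17:50095044-50095144, plus strand, were the places where the PTBP1 and RUNX1 summits lay closest together. SLC16A1 PTBP1 peak 1, chr1:112956173-112956273, minus strand, and TIGAR RUNX1 peak 1, chr12:4321111-4321211, plus strand, were the peaks of the genes where only 1 target was called.
TXNIP RUNX1 1: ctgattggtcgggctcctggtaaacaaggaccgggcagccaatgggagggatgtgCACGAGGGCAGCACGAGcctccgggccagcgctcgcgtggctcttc
SLC16A3 RUNX1 2: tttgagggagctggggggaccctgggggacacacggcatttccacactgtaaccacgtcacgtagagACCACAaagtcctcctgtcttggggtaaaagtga
PFKFB4 PTBP1 2: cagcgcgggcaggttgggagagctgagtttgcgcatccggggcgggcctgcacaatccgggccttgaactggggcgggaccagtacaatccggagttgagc
PDK2 PTBP1 1: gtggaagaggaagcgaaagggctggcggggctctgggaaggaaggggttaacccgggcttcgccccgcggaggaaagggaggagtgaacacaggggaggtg
SLC16A1 PTBP1 1: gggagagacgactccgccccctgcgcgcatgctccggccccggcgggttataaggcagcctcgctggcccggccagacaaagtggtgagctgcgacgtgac
TIGAR RUNX1 1: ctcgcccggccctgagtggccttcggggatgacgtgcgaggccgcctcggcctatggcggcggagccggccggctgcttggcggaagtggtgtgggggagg

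Of the 10 genes, 6 had a PTBP1 peak in the gene or its flanks and 6 had a RUNX1 peak. Both targets were called at PFKFB3, PFKFB4, PDK2, SLC16A3 and TXNIP. SLC16A1 had a PTBP1 peak alone, TIGAR had a RUNX1 peak alone, and PFKFB2, PDK1 and PDK3 had neither. Among all protein-coding genes, 39.4% had a PTBP1 peak in the same window, 36.8% a RUNX1 peak, 29.5% both and 53.3% neither. The 95% Wilson intervals of the members' shares were 31.3 to 83.2% for each target, 23.7 to 76.3% for both and 10.8 to 60.3% for neither. Every one of these background shares lay inside the members' interval. A PTBP1 peak without a RUNX1 peak was found at 9.91% of coding genes and the converse at 7.29%, against 1 of the 10 members in each case.

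At the annotated 5′ end of the gene, taken as 1 kb either side, 5 members had a PTBP1 peak, against 26.4% of coding genes, and 5 had a RUNX1 peak, against 21.3%. They were the same 5 genes, so both targets were called at the 5′ end of 5 of 10 members, against 17.3% of coding genes. The members' interval was 23.7 to 76.3% for each of these counts. The share of coding genes lay inside it for PTBP1, and below it for RUNX1 and for both. Where peaks of both targets had to cover the start base, 1 of the 10 members was left, SLC16A3. With peaks of −log10 q of at least 20 it was again SLC16A3 alone. The share of all coding genes was not counted under these stricter settings, so the members' fall has no background beside it. In most of these genes the canonical transcript starts elsewhere. The canonical start lay 57998 bases inside PFKFB3, 18909 inside PFKFB2, 13450 inside TIGAR, 11108 inside SLC16A3 and 5212 inside PFKFB4, and at the very 5′ end in TXNIP. Counted at the canonical start, 6 members had a PTBP1 peak (27.5% of coding genes), 5 had a RUNX1 peak (22.4%) and 4 had both (18.2%). The members' intervals were 31.3 to 83.2%, 23.7 to 76.3% and 16.8 to 68.7%. Only the share for both lay inside its interval, and the other shares lay below. The change of start brought in SLC16A1 for PTBP1 and exchanged PFKFB3 for TIGAR for RUNX1. Counted at the start of any annotated transcript, the members were 6, 6 and 5, against 30.3%, 25.0% and 20.3% of coding genes. The intervals were 31.3 to 83.2% for each target and 23.7 to 76.3% for both, and each share lay below its interval. These intervals cover counting error only. The members were chosen with earlier results of these data known, so the comparison is a description and not a test.

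**Figure D1:**
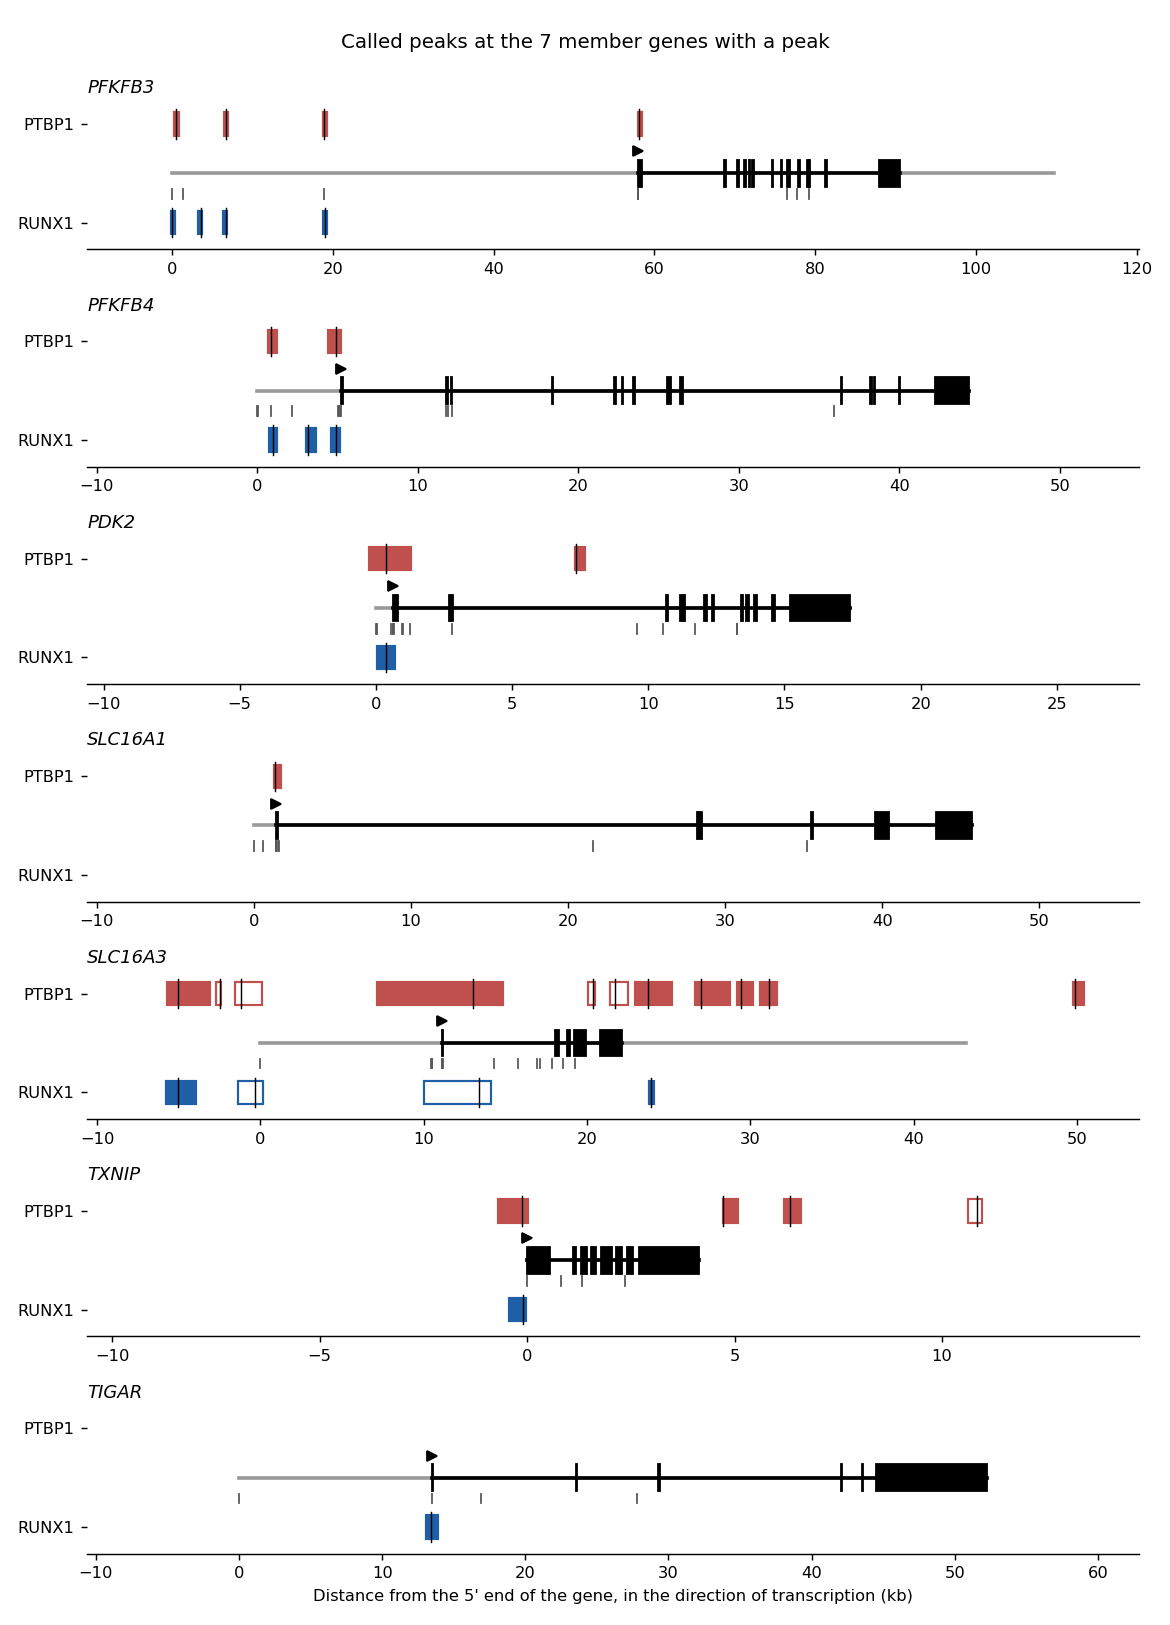
Peaks of PTBP1 (red, above) and RUNX1 (blue, below) at the 7 genes with a peak, by distance in kb from the 5′ end of the gene in the direction of transcription. Black boxes and lines are the exons and introns of the canonical transcript with an arrowhead at its start, grey the rest of the gene, short grey ticks other transcript starts and thin vertical lines the summits. Open boxes are peaks called over a raised background. At PFKFB3 and PFKFB4 the peaks lay at or before the start of the canonical transcript, and SLC16A3 had 11 PTBP1 peaks.

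The 24 PTBP1 peaks had a median fold enrichment of 11.6, from 4.47 to 44.2, beside 12.2 over the 9370 peaks of the list. Fold enrichment is the number of fragments stacked at the summit over the local background, with 1 added to both. The 14 RUNX1 peaks had a median of 11.7, from 9.02 to 50.4, beside 15.0 over 7688 peaks. Of the PTBP1 peaks 12 were above the median of their list, and of the RUNX1 peaks 4 were. Peaks at a transcript start and peaks away from one differed little in median: 12.2 and 10.5 for PTBP1 (11 and 13 peaks), 12.2 and 11.7 for RUNX1 (10 and 4 peaks). The smallest peaks called over the usual background held 11 fragments for PTBP1 and 8 for RUNX1, so an accumulation below these was not detectable at this depth.

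**Figure D2:**
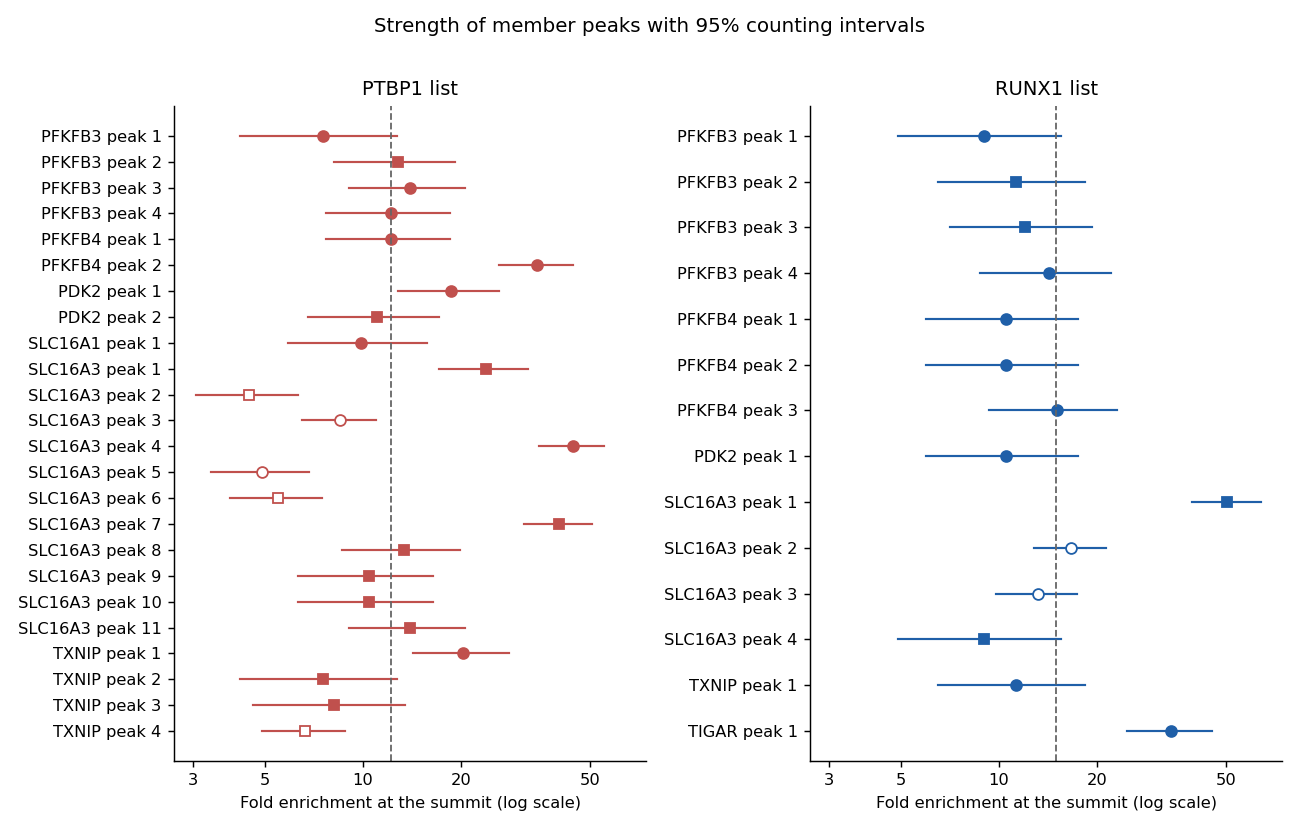
Fold enrichment at the summit (log scale) of each member peak, numbered 5′ to 3′ within the gene, with 95% Poisson intervals on the fragments at the summit. Circles are peaks within 1 kb of a transcript start, squares lie elsewhere, open symbols were called over a raised background, and the dashed line is the median of the list. SLC16A3 peaks 4 and 7 and PFKFB4 peak 2 were the highest for PTBP1, and SLC16A3 peak 1 and TIGAR peak 1 for RUNX1.

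PFKFB3, the isoform with the highest kinase activity of the family, had 4 peaks of each target on chr10 (6144934-6254644, plus strand). All lay at or before the canonical start, in the long 5′ part of the gene. Near the outermost 5′ end the targets were called side by side and not together. RUNX1 peak 1, chr10:6144775-6145116, held 11 fragments at fold 9.02 with its summit at -61, and PTBP1 peak 1, chr10:6145177-6145450, held 12 fragments at fold 7.56 with its summit at 482. The peaks were 60 bases apart and shared none, and both were close to the smallest that could be called.

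Further inside PFKFB3 the targets overlapped at 2 places. At the first, PTBP1 peak 2 held 21 fragments and RUNX1 peak 3 held 15, with summits 24 bases apart, 6714 bases in and beside the starts of MIR3155A and MIR3155B. At the second, 18915 bases in, PTBP1 peak 3 had a fold of 14.0 (95% interval 9.06 to 20.6) and its summit lay 16 bases past an annotated transcript start. RUNX1 peak 4 covered the same place at a fold of 14.3 (8.77 to 22.1), 60 bases from the PTBP1 summit. At the canonical start PTBP1 alone was called, at a fold of 12.2 with 20 fragments and the summit 73 bases into the 5′ UTR of exon 1. The nearest RUNX1 peak lay 38747 bases away. RUNX1 peak 2, at 3588 bases from the 5′ end, was called at a fold of 11.3 without PTBP1, whose nearest peak began 2674 bases away.

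PFKFB4, a second isoform, had 2 PTBP1 and 3 RUNX1 peaks on chr3 (48517684-48562015, minus strand), all with summits before its canonical start. The larger pair lay -291 bases from that start. PTBP1 peak 2, chr3:48556792-48557620, held 58 fragments at a fold of 34.3 (95% interval 26.2 to 44.2), which placed it 756th of 9370. RUNX1 peak 3, chr3:48556856-48557428, held 19 fragments (11.4 to 29.7) at a fold of 15.0, at the middle of its list, and the summits were 2 bases apart. The other pair lay at the start of a longer transcript, 833 bases from the outermost 5′ end, at folds of 12.2 for PTBP1 and 10.5 for RUNX1. RUNX1 peak 2, between the pairs, was called without PTBP1 at a fold of 10.5.

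TIGAR, which lowers fructose 2,6-bisphosphate and so acts against PFKFB3, had a RUNX1 peak and no PTBP1 peak. The single peak was RUNX1 peak 1, chr12:4320835-4321631, with the summit -52 bases from the canonical start, 44 fragments and a fold of 33.8 (24.8 to 45.2), 932nd of 7688. No PTBP1 summit lay within 500 kb of the canonical start and the nearest was 1440 kb away, at FOXM1. By fold this was the strongest RUNX1 peak at a member's own start. The peak also lies in the body of ENSG00000285901, a gene annotated across this locus. PFKFB2 had no peak of either target. Its nearest PTBP1 summit was 268 kb from its canonical start, beside CD55, and its nearest RUNX1 summit 220 kb away.

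Among the pyruvate dehydrogenase kinases, PDK2 alone had peaks. On chr17 (50094737-50112152, plus strand) PTBP1 peak 1, chr17:50094487-50096034, spanned both the outermost 5′ end and the canonical start, held 31 fragments and had a fold of 18.6 (12.8 to 26.2). RUNX1 peak 1, chr17:50094769-50095441, lay inside it with 13 fragments (6.92 to 22.2) at a fold of 10.5 and its summit 1 base from that of PTBP1. At 1548 bases the PTBP1 peak was wider than most, since 11.3% of the list was as wide. A second PTBP1 peak stood in intron 2 with 18 fragments, at the start of the lncRNA ENSG00000250282, with no RUNX1 peak.

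PDK1 and PDK3 had no peak of either target in the gene or its flanks. The summits nearest to the canonical start of PDK1 were 471 kb away for both targets, at DLX1. Those nearest to PDK3 were 440 kb away for PTBP1, near KLHL15, and 557 kb away for RUNX1, at APOO. Both genes lay where fewer peaks were called than around most coding genes. Within 500 kb of the 5′ end of the gene, PDK1 had 1 PTBP1 and 2 RUNX1 peaks (percentiles 24.9 and 30.1 of coding genes). PDK3 had 1 and 0 (24.9 and 6.83), and PFKFB2 had 1 and 4 (24.9 and 48.6). TIGAR, which had a RUNX1 peak, had 0 and 1 (9.2 and 19.4). PDK2 had 17 and 12 in the same distance (82.3 and 83.1). Whether this accounts for the missing peaks was not tested. Their own start windows of 301 bases had a GC content of 76.1% for PDK1 and 75.7% for PDK3, above the median of 65.8% over all coding genes.

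The lactate exporters differed from one another in the number of peaks. SLC16A1, which encodes the widely expressed MCT1, had a single one, PTBP1 peak 1, chr1:112955835-112956298, with 16 fragments (9.14 to 26.0), a fold of 9.88 (5.90 to 15.7) and its summit -27 bases from the canonical start. The antisense gene SLC16A1-AS1 starts there as well, and a peak does not tell them apart. The nearest RUNX1 summit was 81.7 kb away. A RUNX1 accumulation under 8 fragments at this start would not have been called.

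SLC16A3, which encodes MCT4, the exporter of highly glycolytic cells, had 11 PTBP1 and 4 RUNX1 peaks on chr17 (82217934-82261129, plus strand). Only 65 of 20033 coding genes had as many PTBP1 peaks in their window, and 205 had as many RUNX1 peaks. PTBP1 peak 4, chr17:82225055-82232813, was 7759 bases wide and ran across the canonical start into intron 1. Just 20 of 9370 PTBP1 peaks (0.213%) were as wide. It held 75 fragments (59.0 to 94.0) at a fold of 44.2 (34.9 to 55.2), 470th in the list and the highest among the members. RUNX1 peak 3, chr17:82227945-82232069, lay inside it and was itself 4125 bases wide, a width reached by 11 of 7688 RUNX1 peaks (0.143%).

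The RUNX1 peak in intron 1 of SLC16A3 had 48 fragments at the summit but a fold of 13.2, since it was measured over a background of 2.72 fragments instead of the usual 0.33. Among the members, 5 PTBP1 and 2 RUNX1 peaks were called over such a raised background, 8.24 times the usual level in both lists, and 6 of these 7 were at SLC16A3. Over the whole lists 4.86% of PTBP1 and 5.14% of RUNX1 peaks had a raised background. The 5′ end of SLC16A3 was covered only by such peaks, PTBP1 peak 3 with 58 fragments at a fold of 8.51 and RUNX1 peak 2 with 61 fragments at a fold of 16.7, and their summits were 815 bases apart. In fragments these were among the larger peaks of the members, and by fold they were ordinary or low.

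Several of the peaks in the SLC16A3 window belonged as much to its neighbours. PTBP1 peak 1 (fold 23.8) and RUNX1 peak 1 (fold 50.4, 39.1 to 63.9, the highest RUNX1 value among the members) lay about 5 kb upstream at the start of CCDC57, and PTBP1 peaks 6 to 11 lay within the body of CSNK1D, which is transcribed towards SLC16A3. One of these, peak 7, reached a fold of 40.1 with 68 fragments, while the RUNX1 peak over it had 11 fragments at a fold of 9.02. The region as a whole was dense in peaks. There were 114 PTBP1 peaks within 500 kb of the 5′ end of SLC16A3, a count at percentile 99.1 of coding genes. The same distance held 28 RUNX1 peaks (percentile 98.6) and 38 coding starts (percentile 90.8). The end of the chromosome was 996.3 kb away. Whether this density accounts for the number of peaks at SLC16A3 was not tested.

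**Figure D3:**
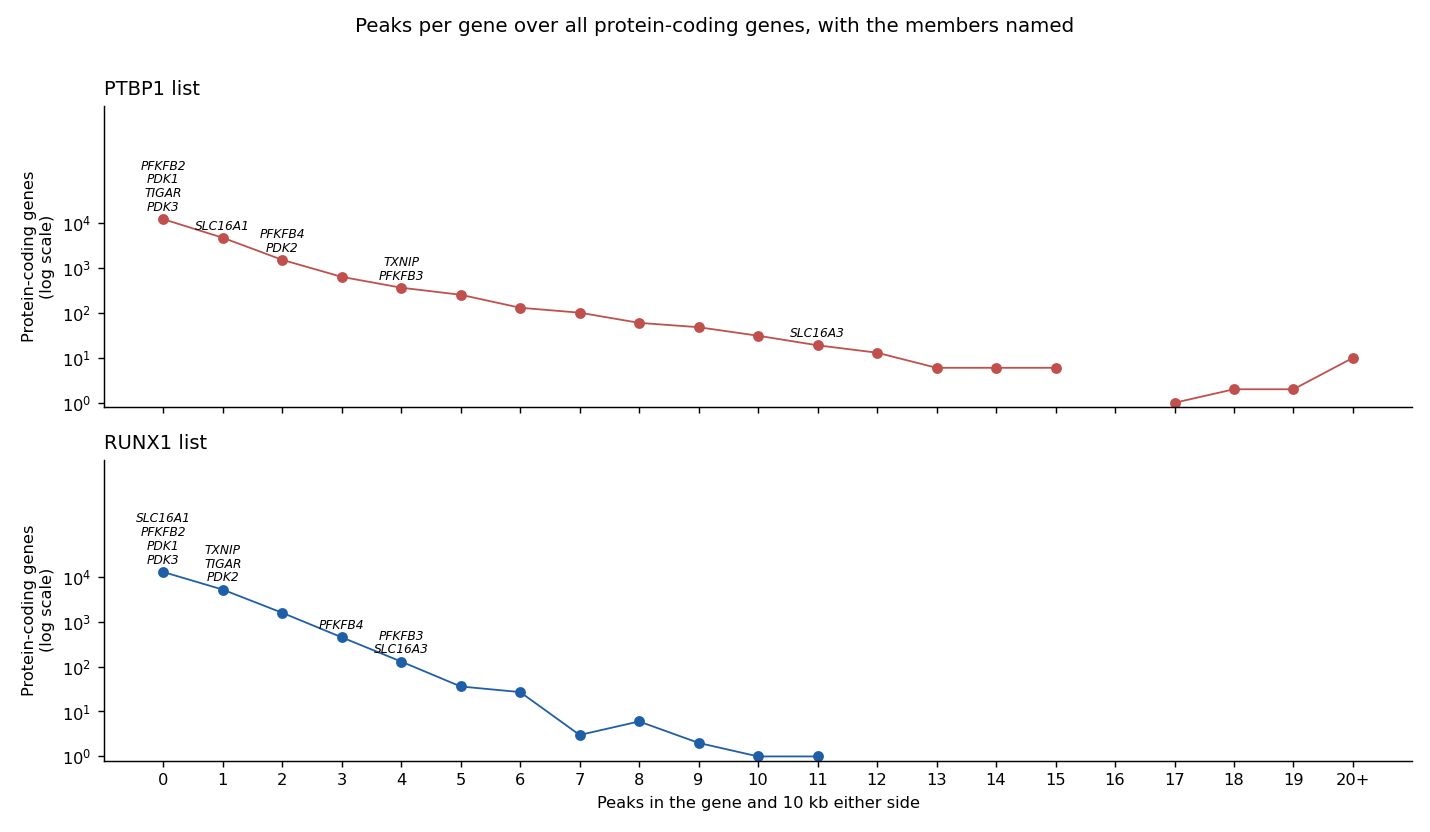
Number of protein-coding genes (log scale) by the number of peaks in the gene and 10 kb either side, for PTBP1 (above) and RUNX1 (below), with the 10 members named at their counts. Most genes and 4 members per list stood at 0, and SLC16A3 stood far to the right for PTBP1 with 11 peaks.

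Per length of window, the members held 3.42 PTBP1 and 1.99 RUNX1 peaks per 100 kb, against 0.899 and 0.595 over all coding genes. Without SLC16A3 the values were 2.04 and 1.57. These are all peaks over the total length of the windows, 701.99 kb for the 10 members and 1780500 kb for the 20033 coding genes. Long genes therefore weigh most in them. The members' windows were longer by the median, 66203 bases against 47471, but shorter by the mean.

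TXNIP had a peak of both targets at its promoter and 3 further PTBP1 peaks downstream, on chr1 (145992435-145996579, minus strand). PTBP1 peak 1, chr1:145996564-145997290, held 34 fragments (23.6 to 47.5) at a fold of 20.3 (14.3 to 28.2) with its summit at -133 from the start. RUNX1 peak 1, chr1:145996602-145997013, held 14 fragments (7.65 to 23.5) at a fold of 11.3 with its summit at -93. The RUNX1 summit window contained a match to the carbohydrate response element, printed in capitals in the sequence above. Its centre lay 13 bases from the RUNX1 summit and at -80 from the start. PTBP1 peak 1 covered the same site, with the centre 53 bases from the PTBP1 summit.

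The downstream PTBP1 peaks of TXNIP had low folds. Peaks 2 and 3 held 12 and 13 fragments at folds of 7.56 and 8.14, and peak 4 held 45 fragments over a raised background at a fold of 6.64. They had no RUNX1 peak and lay in the flank past the 3′ end, at 4727, 6342 and 10843 bases from the 5′ end. All were in repeated sequence. The 16-base words under their summits occurred a median of 47, 10655 and 470.5 times in hg38, whereas the other 35 member summits had medians between 1 and 4 and the median summit of either list had 2. A median of 100 copies or more was found at 1.92% of PTBP1 summits and 1.95% of RUNX1 summits. Among the members, 2 of 24 PTBP1 and 0 of 14 RUNX1 summits reached it, and TXNIP peak 2 did not. The part of repeated sequence in these peaks was not tested, and this measure was chosen after the sequences had been seen.

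Where both targets were called in the same place, their summits were close. The members had 10 overlapping pairs with a median summit distance of 52 bases, from 1 to 815, and 8 of the 10 (80.0%) lay within 200 bases, against 77.1% of the 4691 overlapping pairs in the lists. PTBP1 stood higher in its list than RUNX1 did in 8 of the 10 pairs (80.0%), against 65.1% of all pairs. Among these 8 the gaps were widest at SLC16A3 peaks 7 (percentile 93.9 for PTBP1 and 12.7 for RUNX1) and 4 (94.9 and 42.0), followed by PDK2 (75.3 and 23.9), TXNIP (79.1 and 29.8) and PFKFB4 peak 2 (91.8 and 51.1). The exceptions were both at SLC16A3, at the CCDC57 start (84.0 and 94.8) and at the 5′ end of the gene (14.1 and 58.8). Ranks within each list are compared because the lists had different backgrounds, and no test was possible on single lists. Such ranks do not correct for a raised background at a single place. At SLC16A3 peak 4 the RUNX1 peak, with 48 fragments, was over a raised background of 2.72, which lowers its fold and percentile. The PTBP1 peak there was over the usual 0.72, so that gap is in part one of background.

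**Figure D4:**
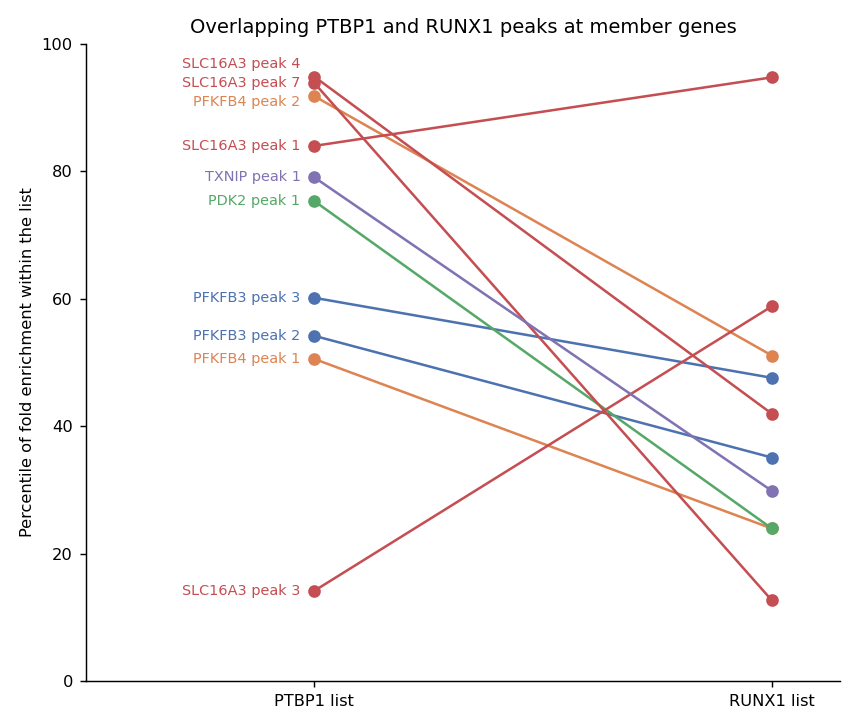
Percentile of fold enrichment within the PTBP1 list (left) and the RUNX1 list (right) for the 10 places where peaks of both overlapped at a member gene, joined by lines and labelled by the PTBP1 peak. In 8 of the 10 the line falls towards RUNX1, and the 2 that rise are SLC16A3 peaks 1 and 3.

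RUNX1 peaks shared 1 base or more with 10 of the members' 24 PTBP1 peaks (41.7%, 24.5 to 61.2%), against 49.2% of the list. PTBP1 peaks did so with 10 of the 14 RUNX1 peaks (71.4%, 45.4 to 88.3%), against 60.2%. Most of the PTBP1 peaks without RUNX1 were those downstream of TXNIP and across CSNK1D.

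The RUNX motif was searched as TGTGGT or TGCGGT on both strands within 50 bases of each summit. It was present at 1 of the 14 RUNX1 summits of the members, SLC16A3 peak 2, against 24.2% of all RUNX1 summits, and at 1 of the 24 PTBP1 summits, SLC16A3 peak 8, against 8.79%. The E-box CACGTG was present at 4 PTBP1 summits, PFKFB3 peaks 1 and 3 and SLC16A3 peaks 5 and 7, against 3.11% of the list, and at 0 RUNX1 summits, against 2.64%. CCGGAA, the core bound by ETS factors, was present at 1 PTBP1 and 2 RUNX1 summits, against 6.55% and 6.5%. Median GC content around the summits was 66.3% for both targets at the members, beside 65.3% over all PTBP1 and 62.4% over all RUNX1 summits.

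The carbohydrate response element was searched as a pair of CACGNG words with 5 bases between them, on both strands. Within 50 bases of the summit it occurred at 3 of the 7688 RUNX1 peaks (0.039%), and 2 of these were at members, TXNIP peak 1 and PFKFB3 peak 4. It occurred at 3 of 9370 PTBP1 peaks (0.032%), and 1 was PFKFB3 peak 3, which covers the same site. These counts depend on the window. Within 100 bases the element occurred at 11 RUNX1 summits (0.143%) and 7 PTBP1 summits (0.0747%). Of these, 2 RUNX1 and 2 PTBP1 summits were at members, with TXNIP PTBP1 peak 1 added. In PFKFB3 the site was chr10:6163875-6163891 on the plus strand, and in TXNIP chr1:145996651-145996667 on the minus strand.
PFKFB3 site: CTCGTGAGCTCCGCGTG
TXNIP site: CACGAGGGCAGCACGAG
Of the windows of 301 bases around the canonical starts of all coding genes, 0.0948% held such a pair, TXNIP among them and the other 9 members not. The RefSeq promoter sequences of hg38 held it in 0.057% of 35116, and 8 of the 10 members had an entry there. With so few sites in each list this is a description of places, and it does not say what was bound there.

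The lists of related genes, also chosen with earlier results of these data known, were read for the same peaks. Of 7 genes that regulate the members, 5 had a PTBP1 peak at the 5′ end and 3 a RUNX1 peak. ARNT, the partner of HIF-1α, had both at folds of 61.0 and 57.9, and MLX, the partner of MondoA and ChREBP, had both at 20.3 and 12.8. HIF1A itself had PTBP1 alone at 17.4 and MLXIP PTBP1 alone at 10.5. PRKAA1, a catalytic subunit of AMP-activated kinase, had both at 4.33 and 5.92. The lowest folds over the usual background were 6.98 for PTBP1 and 6.77 for RUNX1. Both PRKAA1 peaks were therefore called over a raised background, and their folds do not compare directly with the others. The shares over all coding genes were 26.4% and 21.3%.

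Of 19 genes that the members act on or work with, 6 had a PTBP1 peak at the 5′ end (31.6%), 7 a RUNX1 peak (36.8%) and 4 both (21.1%, against 17.3% of coding genes). The 4 were MPC1 and MPC2, which together form the mitochondrial pyruvate carrier, and DLD and PFKL. Folds were 44.2 for PTBP1 and 176 for RUNX1 at MPC1, and 19.8 and 13.5 at MPC2. They were lower at DLD, 10.5 and 9.02, and at PFKL, 13.4 and 7.52. BSG, the chaperone that brings MCT1 and MCT4 to the membrane, had 9 PTBP1 and 2 RUNX1 peaks in its window. Exactly 9 PTBP1 peaks were found at 48 of the 20033 coding genes. Genes with more peaks are left out of this count, unlike the count given for SLC16A3, so they do not compare. At the 5′ end of BSG, PTBP1 had a fold of 26.2 and RUNX1 was not called, but RUNX1 was called at its canonical start. Neither target was called in the window of 7 of the 19 (36.8%), against 53.3% of coding genes. These were PDHA1, the subunit of pyruvate dehydrogenase that PDK kinases phosphorylate, its partner PDHB, and PDHX, LDHB, PFKM, PFKP and EMB. Of 5 paralogs outside the members, SLC16A7 and ARRDC4 had both targets at the 5′ end, with folds of 9.3 and 22.6 at SLC16A7 and 33.1 and 18.0 at ARRDC4, an arrestin of the TXNIP family. PDK4 and PFKFB1 had no peak.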

How the data were processed

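Chromatin of MOLM-13 cells was profiled by CUT&Tag and CUT&RUN in 13 libraries. Per the methods, the authors used Bowtie2 for alignment of read pairs to hg38, discarded duplicates and alignments of low mapping quality, and ran MACS3 with a q-value threshold of 1e-07. The submitters' processing notes also name bedtools 2.30.0. The deposited lists name a target, with neither assay nor replicate, and were taken as CUT&Tag lists, since the methods describe peak calling for that assay. Whether replicates were pooled, and which control was used, is not given in the sources used here. Reads, IgG, H3K27me3 and CUT&RUN libraries were not analysed here.

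The deposited fold enrichment is a ratio, the fragment pileup at the summit plus 1 over the background plus 1. The −log10 p-value and −log10 q-value of the summit are deposited as well, and the deposited score is 10 times the −log10 q-value. Pileup and background were solved from the fold and the p-value under a Poisson model, to within 0.00134 of the deposited −log10 p-value, and this was tested on simulated data (500 of 500 pairs recovered). Depth enters only through these pileups. Poisson and Wilson intervals are at 95% and cover counting error only. A background above 1.5 times the usual level was called raised.

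Genes, transcripts and starts were from GENCODE v44. Windows were the gene and 10 kb either side, and starts 1 kb either side. Overlap was at least 1 base. All peaks in the windows of the 10 members are reported, with the other genes that start or lie there, and related genes are given from 3 lists of paralogs, targets and regulators. Members and lists were chosen with earlier results of these data known. Sequences were read from hg38, and promoters are those of RefSeq. No test was run. Alternatives were stricter peaks, other windows and starts, and other motif windows. Python 3.11.15, numpy 2.4.6, pandas 2.3.3 and scipy 1.17.1 were used.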

Additional observations from a re-analysis of the deposited data

How the results depend on the processing

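The lists are single, and the values depend most on how strict a peak and a start are taken. Over 12 counts, shares and medians and 15 alternative settings, 78 of 86 values stayed within 1.5 times a count or within an interval. For a share this was its Wilson interval, and for a median fold the Poisson interval of a single peak at that fold. The latter is wide for a median. At −log10 q of at least 20 the median fold went from 11.6 to 16.3 for PTBP1 and from 11.7 to 15.9 for RUNX1. Both counted as unchanged. With peaks of −log10 q of at least 20, both targets were found in the window of 3 members, PFKFB3, PFKFB4 and SLC16A3, and at the 5′ end PTBP1 at 3 members, RUNX1 at 1 and both at 1. Where peaks had to cover the start base, PTBP1 was at 3 members, PDK2, SLC16A3 and TXNIP, RUNX1 at 2, PFKFB3 and SLC16A3, and both at 1. Without peaks over a raised background, 0 of 12 RUNX1 summits of the members held the RUNX motif, and PTBP1, RUNX1 and both stood at the 5′ end of 4 members, without SLC16A3. The cause of these changes was not tested beyond the construction of each setting, which leaves fewer peaks. The shares over all coding genes were not counted under these stricter settings, so the members' counts have no background beside them. No paired analysis was possible because the peak lists carry no replicate, and leaving out a replicate could not be run for the same reason.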
